A study of Mus musculus with 39 samples.

Results

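The proteasome subunit genes were taken as every gene symbol made of Psm, a single letter from a to g and a number. The rule gave 46 of the 11556 genes listed over 39 mouse libraries. They were set apart by role into 14 core particle genes (Psma1 to Psma7 and Psmb1 to Psmb7), 5 immunoproteasome genes (Psmb8, Psmb9, Psmb10, Psme1 and Psme2), 20 genes of regulatory particles and their inhibitor (Psmc, most Psmd, Psme3, Psme4 and Psmf1) and 7 assembly factors (Psmd5, Psmd9, Psmd10 and Psmg1 to Psmg4). All 46 were tested in 4 of the 5 experiments; in the genotype experiment 45 were, and Psmg4 is not analysed there. Psme2b, a near copy of Psme2, falls outside the rule, so the split of reads between these copies could change the values of Psme2.

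The proteasome is the cell's main protease for ubiquitin-tagged proteins. A barrel of alpha and beta rings, the core particle, holds the active sites, and a regulatory particle with an ATPase ring and a lid recognises, unfolds and feeds in the substrate. Interferon-gamma and related signals replace the catalytic subunits Psmb5, Psmb6 and Psmb7 with Psmb8, Psmb9 and Psmb10, and Psme1 and Psme2 form an activator cap. This immunoproteasome is abundant in blood-forming cells and makes peptides for MHC class I molecules, which the transporter of Tap1 and Tap2 carries into the endoplasmic reticulum.

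The study compared mice kept without food with fed mice, in liver cells and in monocytes, the circulating phagocytes made in bone marrow. All mice were 8 to 12 weeks old and were C57BL/6, other than the CCR2-/- group, which lacks a chemokine receptor that monocytes use to leave the marrow. Hepatocytes, isolated by liver perfusion and centrifugation, came from mice fasted for 12 h (n = 3), fed over 12 h (n = 2), fasted for 4 h (n = 2) or fed over 4 h (n = 3). Monocytes sorted by flow cytometry from bone marrow came from mice fasted for 17 h (n = 4) or fed (n = 3), from mice fasted for 4 h (n = 4) or fed (n = 4), and from fed CCR2-/- (n = 3) and fed C57BL/6 mice (n = 3). Sorted spinal cord monocytes came from mice with EAE, an induced autoimmune disease of brain and spinal cord, and that were under 24 h fasting cycles for 4 weeks (n = 4) or fed (n = 4). Fasted mice had water and changed bedding.

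The promoter pieces of Psmb9, Psmb8 and Psmb5 are shown because the results below turn on the pairing of inducible with constitutive subunits and on the neighbours Psmb9 and Tap1. The sequences are from RefSeq on build GRCm38.p6, written 5′ to 3′ in the direction of the named gene, and end at the base before its RefSeq start. Bases inside a RefSeq gene span were trimmed off. Psmb9 and Tap1 lie head to head on chromosome 17. Psmb9 starts at 34187330 on the minus strand and Tap1 at 34187556 on the plus strand, and the first sequence is the whole stretch between them (chr17:34187331-34187555). The second lies before Psmb8 (chr17:34197945-34198194, plus strand) and the third before Psmb5 (chr14:54617996-54618115, minus strand). In another annotation, GENCODE M21, the genes reach farther: Psmb9 to 34187764, Psmb8 from 34197721 and Psmb5 to 54618022. By those spans the first and second pieces lie inside a gene, and the third does in part.
Psmb9 to Tap1: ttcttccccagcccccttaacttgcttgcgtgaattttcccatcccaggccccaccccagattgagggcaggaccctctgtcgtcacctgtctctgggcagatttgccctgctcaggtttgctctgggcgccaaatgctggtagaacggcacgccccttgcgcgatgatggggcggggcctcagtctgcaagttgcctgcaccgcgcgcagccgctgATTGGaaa
Psmb8: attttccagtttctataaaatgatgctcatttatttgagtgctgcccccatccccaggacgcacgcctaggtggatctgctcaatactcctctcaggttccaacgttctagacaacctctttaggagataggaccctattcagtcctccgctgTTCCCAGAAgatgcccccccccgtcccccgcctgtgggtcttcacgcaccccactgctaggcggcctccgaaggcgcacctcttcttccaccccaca
Psmb5: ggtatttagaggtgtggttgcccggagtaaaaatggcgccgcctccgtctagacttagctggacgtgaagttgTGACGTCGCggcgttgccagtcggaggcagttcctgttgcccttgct
Capitals mark matches, on either strand, to CCAAT (written ATTGG on the opposite strand), TTCNNNGAA (a palindrome of interferon-gamma-activated elements) and TGACNNNGC (a core of the element bound by the factors of Nfe2l1 and Nfe2l2). These matches are no rarity. In windows of 250 bases before 32851 RefSeq starts, CCAAT was found in 33.8% of windows and in 13 of the 39 members that could be matched (33.3%). TGACNNNGC was found in 10.2% of windows and in 5 members (12.8%), and TTCNNNGAA in 7.02% of windows and in 2 members (5.13%). The further motif AANNGAAA, as in interferon-responsive elements, was found in 21.3% of windows and in 10 members (25.6%).

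Levels are in TPM, the share of each transcript in a library, which is scaled for transcript length. A trend on length remained and differed between libraries, as given below. Ratios and shares between genes of unlike length carry that trend when libraries are compared. The number of reads behind them is unknown, and precision was taken from the spread between libraries alone. Calls are from limma on log2(TPM + 1), with p-values adjusted over all genes tested and called under 0.05, and every fold change is on that scale, which understates change in genes of low TPM. Nothing in the labels says that the libraries in a group are different animals, so p-values measure only the spread between libraries. The 5 experiments were listed with different genes. Summed markers of hepatocytes were at 63347 to 91330 TPM in hepatocytes, and summed monocyte markers at 63046 to 99440 TPM in marrow and 29023 to 57675 TPM in spinal cord. Ccr2, whose deletion defines the knockout, was at 64.7, 62.3 and 60.8 TPM in CCR2-/- and at 2449, 2622 and 2338 TPM in C57BL/6 monocytes. Several groups stand apart as a whole. In fed 17 h marrow the median log2 value of genes with transcripts under 1000 bases exceeded that of genes over 3000 bases by 4.30 to 4.51, against 0.911 to 1.38 in fasted 17 h marrow. Fed spinal cord libraries 1 and 2 held 144980 and 150390 TPM of neutrophil markers, against 7521 to 23267 TPM in the other 6 spinal cord libraries.

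Marrow monocytes had higher levels of the inducible catalytic subunits Psmb8 and Psmb9 than hepatocytes, both from mice fed over 4 h. Psmb8 was at 544, 534, 515 and 479 TPM in monocytes and at 86.7, 109 and 105 TPM in hepatocytes (log2 fold change 2.36 ± 0.15 SE, limma adjusted p = 4.5e-09). Psmb9 was at 157, 157, 152 and 130 TPM in monocytes and at 29.7, 25.5 and 28.8 TPM in hepatocytes (2.37 ± 0.11, adjusted p = 1e-10). Every monocyte library lay above every hepatocyte library for both genes. The cap gene Psme2 differed less, at 671, 563, 587 and 543 TPM in monocytes and 340, 352 and 356 TPM in hepatocytes (0.75 ± 0.14). Psmb10 was higher as well (1.44 ± 0.10), though at -0.13 and not called when centred. Of the constitutive partners, Psmb5 did not pass the test (0.12 ± 0.12, adjusted p = 0.38) and was called lower with quantile normalization (-0.73) and when centred (-1.45). Psmb7 was higher as deposited (0.58 ± 0.12) and lower in both of those fits (-0.41 and -0.99). Psmb6 was lower in monocytes, at 380, 329, 368 and 317 TPM, against 504, 460 and 459 TPM in hepatocytes (-0.45 ± 0.11). Among 46 members 36 were called higher in monocytes and 2 lower, with 73.6% of 7295 genes called higher and 14.3% lower. The members' median was 0.76 and that of all genes 1.51. With libraries centred on their median the split was 8 higher and 30 lower (39.6% and 41.6% of genes), and with quantile normalization 15 and 20 (41.6% and 40.4%). Psmb8 and Psmb9 stayed higher in both (0.79 and 0.80 centred), whereas Psme1 and Psme2 were called lower when centred (-0.35 and -0.82). The regulatory ATPase gene Psmc6 was called with the highest fold change, at 126 to 148 TPM in monocytes and 13.4 to 17.9 TPM in hepatocytes (3.04 ± 0.14). The assembly factor Psmd10 (2.10 ± 0.14), the alpha subunit Psma1 (2.08 ± 0.09) and Psme4, an alternative activator cap (2.17 ± 0.45), were higher too, and the assembly chaperone gene Psmg1 was lower (-0.86 ± 0.23). With the length trend removed, Psme4 was at -0.17. Cell type and experiment cannot be told apart here. The hepatocyte libraries also held RNA of other liver cells: 13 Kupffer and macrophage markers summed to 1618 to 1653 TPM at 4 h of feeding, and their part in the levels of the inducible genes was not tested.

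The share of the inducible gene within each catalytic pair did not overlap between monocytes and hepatocytes for Psmb8 and Psmb9, and its difference between fasted and fed libraries went either way. It is the TPM of the inducible gene over the summed TPM of the pair, given per library with no test. Psmb8 took 58.3% to 76.8% of its pair with Psmb5 in the 29 monocyte libraries, and 12.1% to 38.8% in the 10 hepatocyte libraries. Psmb9 took 11.2% to 33.9% of its pair with Psmb6 in monocytes and 3.70% to 8.01% in hepatocytes. Psmb10 took 42.0% to 71.2% of its pair with Psmb7 in monocytes and 11.6% to 42.7% in hepatocytes. For Psmb10 the ranges of the cell types met between 42.0% and 42.7%. The lowest monocyte shares were those of fed spinal cord libraries 1 and 2, at 42.0% and 44.2%. Every other monocyte library was at 52.2% or above. Within hepatocytes, the Psmb8 share was 12.1%, 17.6% and 13.9% after 12 h of fasting and 25.0% and 23.3% in fed mice of 12 h. The Psmb9 share went the other way, at 6.91% to 8.01% in fasted and 3.70% to 4.00% in fed hepatocytes of 12 h, and at 6.62% to 7.66% in fasted and 5.24% to 5.90% in fed hepatocytes of 4 h. At 4 h the Psmb8 shares in hepatocytes of fasted mice (37.5% and 31.6%) lay within those of fed mice (30.3% to 38.8%). In marrow at 4 h the Psmb8 share was 66.0% to 67.1% in fasted and 70.0% to 72.6% in fed mice, though neither Psmb8 nor Psmb5 was called there. In marrow at 17 h it was 67.5% to 70.2% in fasted and 63.9% to 66.2% in fed mice. Fasted libraries thus lay above the fed ones there and below them at 4 h. However, the transcripts of Psmb8 and Psmb5 are 1628 and 899 bases long, and fed 17 h libraries had the excess of short transcripts given above. At 4 h this excess was 0.647 to 1.36 in fasted and 0.328 to 0.911 in fed libraries. The shares were not corrected for length, and its part in the differences at 4 h and 17 h was not tested. The Psmb10 share at 17 h was 54.4% to 58.4% in fasted and 65.0% to 70.2% in fed mice.

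**Figure D1:**
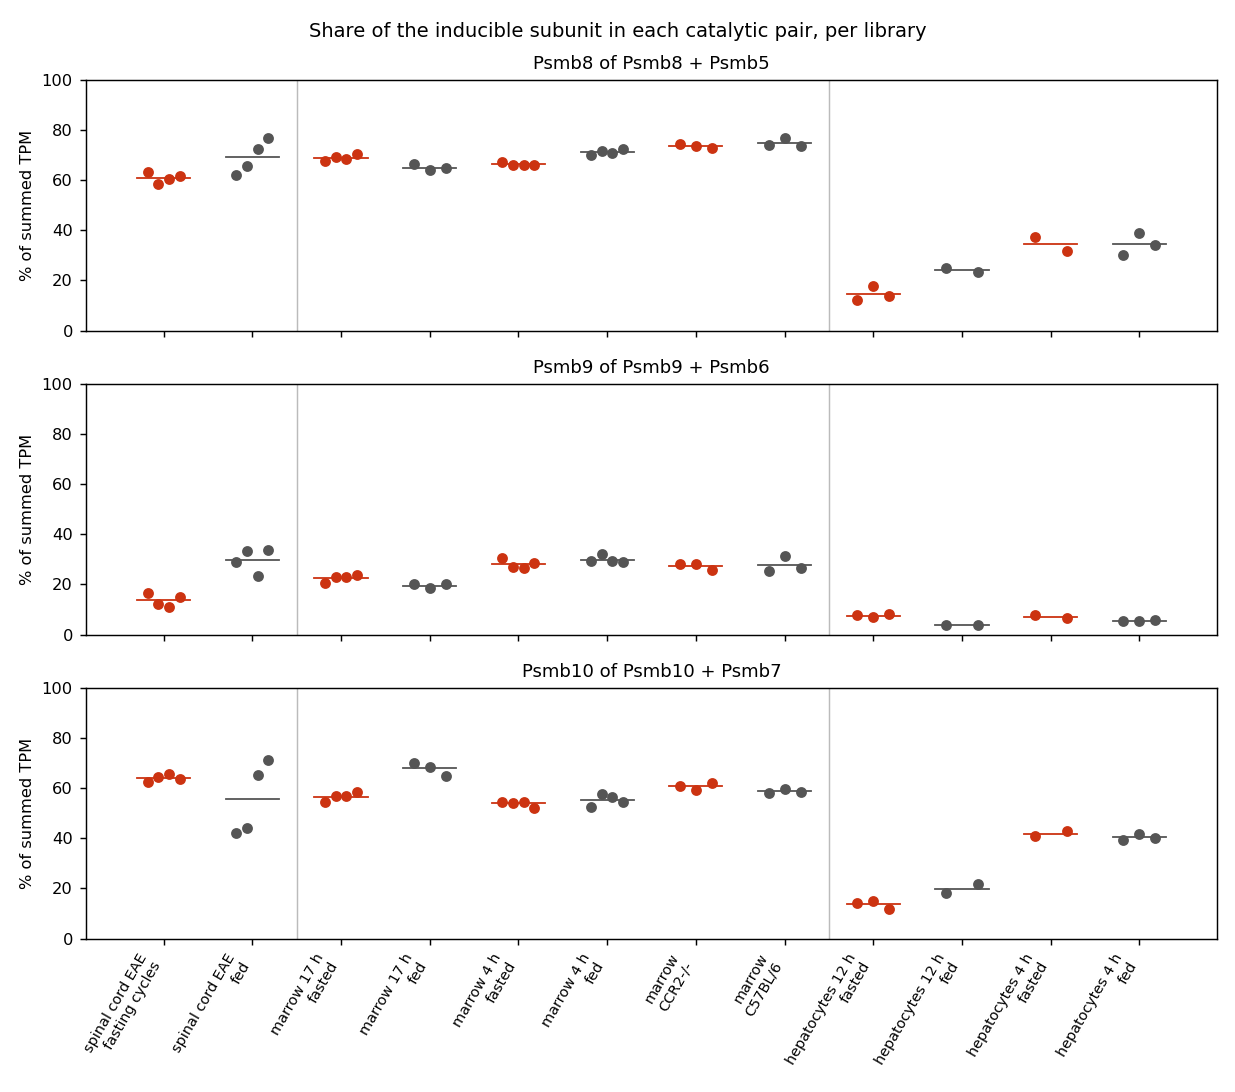
Percent of the summed TPM of each catalytic pair that comes from the inducible gene, 1 point per library and a line at the group mean, for 12 groups from spinal cord, marrow and liver (red, fasted or CCR2-/-; grey, fed or C57BL/6). The Psmb8 share is 58.3% to 76.8% in monocytes and 12.1% to 38.8% in hepatocytes.

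Hepatocytes of mice 4 h without food had less RNA for subunits of the core and the regulatory particle, while no immunoproteasome gene was called. Of 46 members 25 were called lower and 1 higher, with 26.8% of 8966 genes called lower and 10.4% higher. They were 9 of 14 core genes, 13 of 20 regulatory genes and 3 of 7 assembly factors. None of the 5 immunoproteasome genes was called by limma, and 1, Psmb9, had an unadjusted p under 0.05, as did 46.9% of genes (0.37 ± 0.16, adjusted p = 0.098, and 0.033 without fasted library 2). The members' median log2 fold change was -0.41, against -0.22 over all genes. Psmb8 had a log2 fold change of -0.03, Psmb10 one of -0.22, and Psme1 and Psme2 one of -0.25 each. Whether the immunoproteasome genes differed from the other classes was not tested. The fasted libraries were also less alike than the fed ones. Over genes of at least 10 TPM the SD of their log2 difference was 0.87, against 0.35 to 0.37 between fed libraries.
Psmc6 was at 6.76 and 4.10 TPM in fasted and at 13.4, 16 and 17.9 TPM in fed hepatocytes (-1.41 ± 0.19, limma adjusted p = 0.00056). Psmd14, the lid's deubiquitinase, was at 12.7 and 26.8 TPM in fasted and at 50.6, 44.7 and 44.2 TPM in fed hepatocytes (-1.28 ± 0.27, adjusted p = 0.0062). Both fasted libraries lay below all fed libraries for these genes, and they differed from each other by more than the fed ones did.
Among the alpha subunits, which form the gate of the core, Psma1 was at 45.2 and 53.0 TPM in fasted and at 118, 114 and 118 TPM in fed hepatocytes (-1.24 ± 0.08, adjusted p = 1.5e-05). Psma3 was at 49.4 and 66.4 TPM in fasted and at 135, 130 and 129 TPM in fed hepatocytes (-1.18 ± 0.11). Psma5 (-1.08 ± 0.17) and Psma4 (-0.87 ± 0.13) followed. The constitutive beta subunits with active sites were not called: Psmb6 was at 495 and 455 TPM in fasted and at 504, 460 and 459 TPM in fed hepatocytes (0.00 ± 0.10), Psmb5 had a log2 fold change of -0.05 ± 0.13, and Psmb7 one of -0.31 ± 0.12 (adjusted p = 0.068, and 0.0043 without fasted library 1).
The assembly factor Psmd9 was the only member called higher, at 86.3 and 98.9 TPM in fasted and at 47.0, 58.3 and 50.4 TPM in fed hepatocytes (0.82 ± 0.16, adjusted p = 0.0045). Pomp, the maturation factor of the core, was at 35.2 and 34.6 TPM in fasted and at 59.4, 54.8 and 57.3 TPM in fed hepatocytes (-0.70 ± 0.09). Of 18 other proteasome factors measured, such as shuttling receptors and deubiquitinases, 13 were called lower and 0 higher, and of 10 regulators of proteasome genes 5 were lower and 0 higher. Nfe2l1, the factor that drives proteasome genes when proteasomes are short, had a log2 fold change of 0.25 ± 0.14 (adjusted p = 0.19). Fitted on the 5 libraries of 4 h alone, 15 members were lower and 1 higher, with 14.1% and 5.79% of genes.
Other cells moved with this contrast too. The Kupffer and macrophage markers summed to 2567 to 2651 TPM in fasted and 1618 to 1653 TPM in fed hepatocytes of 4 h, with 7 of 13 called higher, and the endothelial markers to 902 to 1058 TPM in fasted and 496.6 to 549.8 TPM in fed hepatocytes, with 11 of 12 called higher. Of 5 erythroid markers 3 were called lower, and they summed to 1453 to 2940 TPM in fasted and 3971 to 4937 TPM in fed hepatocytes. No marker of these lists was at 0 in every library, and the part of these cells in the lower proteasome genes was not tested.

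After 12 h the pattern differed: the immunoproteasome genes were lower in fasted hepatocytes, apart from Psmb9. Of 46 members 12 were called lower and 4 higher, with 16.8% of 8966 genes called lower and 23.4% higher. Of the 5 immunoproteasome genes 4 were lower and 1 higher. Of 14 core genes 7 were lower (1 with quantile normalization), of 20 regulatory genes 2 were higher (7 with quantile normalization, 1 higher and 4 lower when centred), and of 7 assembly factors 1 was higher and 1 lower. The members' median was -0.19, and that of all genes 0.05.
Psmb10 was at 13.1, 14.5 and 9.38 TPM in fasted and at 23 and 29.4 TPM in fed hepatocytes (-1.04 ± 0.19, limma adjusted p = 0.0017). Psme1 was at 46.9, 53.8 and 66.4 TPM in fasted and at 112 and 112 TPM in fed hepatocytes (-1.01 ± 0.18, adjusted p = 0.0017). Psme2 was at 105, 120 and 69.2 TPM in fasted and at 189 and 204 TPM in fed hepatocytes (-1.03 ± 0.22, adjusted p = 0.0041). All 3 fasted libraries lay below both fed libraries for each of these genes. Psmb8 was at 16.9, 28.5 and 20.3 TPM in fasted and at 42.0 and 40.3 TPM in fed hepatocytes (-0.91 ± 0.26, adjusted p = 0.02). Its groups did not overlap either, but its call was lost without fasted library 1 (adjusted p = 0.065), fasted library 3 (0.056), fed library 1 (0.10) or fed library 2 (0.086).
Psmb9 went the other way, at 17.5, 15 and 14.2 TPM in fasted and at 10.3 and 11.6 TPM in fed hepatocytes (0.47 ± 0.16, adjusted p = 0.043). That call was lost with quantile normalization (adjusted p = 0.17), with centring (0.11) and without each of 8 of the 10 hepatocyte libraries, fed and fasted, 4 h and 12 h. Leaving them out gave log2 fold changes of 0.38 to 0.54 and adjusted p of 0.052 to 0.23. Tap1, its head-to-head neighbour in the sequence above, was at 32.7, 37.1 and 33.8 TPM in fasted and at 10.4 and 12.1 TPM in fed hepatocytes (1.53 ± 0.18, adjusted p = 0.00013). Irf1, an interferon-induced activator of immunoproteasome genes, was higher in fasted hepatocytes (0.79 ± 0.16).
Other liver cells moved with this contrast. The 13 Kupffer and macrophage markers summed to 869 to 876 TPM in fasted and 234 to 240 TPM in fed hepatocytes of 12 h, and all 13 were called higher. The 12 endothelial markers summed to 612 to 637 TPM in fasted and 46.5 to 51.9 TPM in fed hepatocytes, and all 12 were called higher. Clec4f, a defining Kupffer cell marker, was at 146 to 156 TPM in fasted and at 16.8 to 24.2 TPM in fed libraries. No marker of either list was at 0 in every hepatocyte library. Fewer cells of a type and less RNA per cell cannot be told apart in bulk RNA, and the part of these cells in the higher Psmb9 and Tap1 was not tested.

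**Figure D2:**
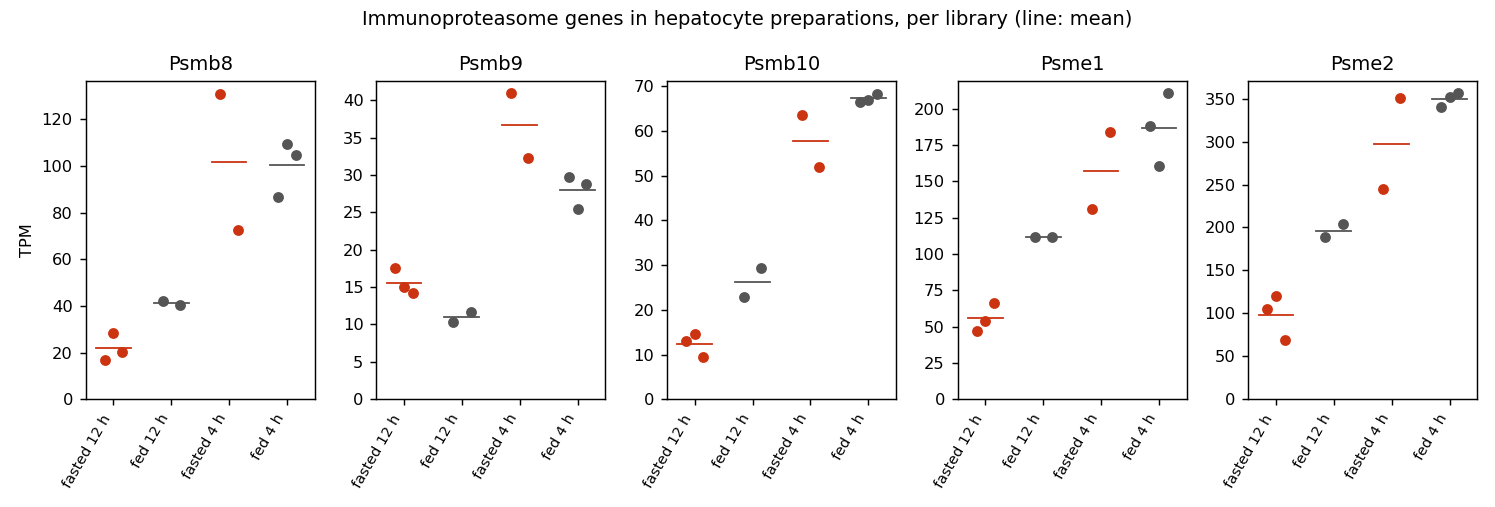
TPM of the 5 immunoproteasome genes in each hepatocyte library, with groups in the order fasted 12 h, fed 12 h, fasted 4 h and fed 4 h. At 12 h the fasted libraries lie below the fed ones for Psmb8, Psmb10, Psme1 and Psme2 and above them for Psmb9.

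Psmd9 was again the highest member, at 95.9, 104 and 87.1 TPM in fasted and at 34.1 and 49.3 TPM in fed hepatocytes of 12 h (1.20 ± 0.16, limma adjusted p = 0.00032), and its groups did not overlap at either time. Among regulatory genes the ubiquitin receptor Psmd4 was at 219, 213 and 230 TPM in fasted and at 155 and 151 TPM in fed hepatocytes (0.53 ± 0.13). The lid gene Psmd3 was at 151, 131 and 145 TPM in fasted and at 100.3 and 91.9 TPM in fed hepatocytes (0.56 ± 0.18). Psmd5, a chaperone of the ATPase ring, was lower, at 30.1, 25.0 and 29.5 TPM in fasted and 57.1 and 50.5 TPM in fed hepatocytes (-0.91 ± 0.29). Of the constitutive partners Psmb6 was lower (-0.52 ± 0.10), as was Psmb7 (-0.43 ± 0.12), while Psmb5 was at 123, 133 and 126 TPM in fasted and at 126 and 133 TPM in fed hepatocytes and was not called. The alpha subunit Psma2 was lower (-0.56 ± 0.18). Pomp was lower again (-0.73 ± 0.09). Of 16 genes of class I presentation 9 were called higher and 3 lower, H2-K1 among the higher (0.61 ± 0.04).
The count for 12 h rests on few libraries. It was 6 without fed library 2 of 12 h, 7 without fed library 1, 8 without fasted library 3 and 9 without fasted library 1, against 16 with all. Quantile normalization gave 8 higher and 7 lower (21.5% and 21.6% of genes), and centring 2 and 18 (21.0% and 20.5%). The calls of Psmd3, Psmd4, Psmd5, Psma2 and Psmb7 were each lost without fed library 1 or 2 of 12 h, those of Psmd3 also without fasted library 1 or 3, of Psmb7 without fasted library 3, and of Psmd5 and Psma2 without any of the 3 fasted libraries (adjusted p of 0.054 to 0.17 over all of these). Psmb7 was also lost with quantile normalization (adjusted p = 0.053), and Psmd3 with centring (0.068). When fitted on the libraries of 12 h alone, Psmb8 (limma adjusted p = 0.010), Psmb9 (0.034), Psmb7 (0.0048) and Psma2 (0.0012) kept their calls. So did Psmd3 (0.0015), Psmd4 (0.00039) and Psmd5 (0.00096). In that fit the regulatory genes Psmc2, Psmc5, Psmc6 and Psme3 were also called lower, and Psmc1 higher.

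**Figure D3:**
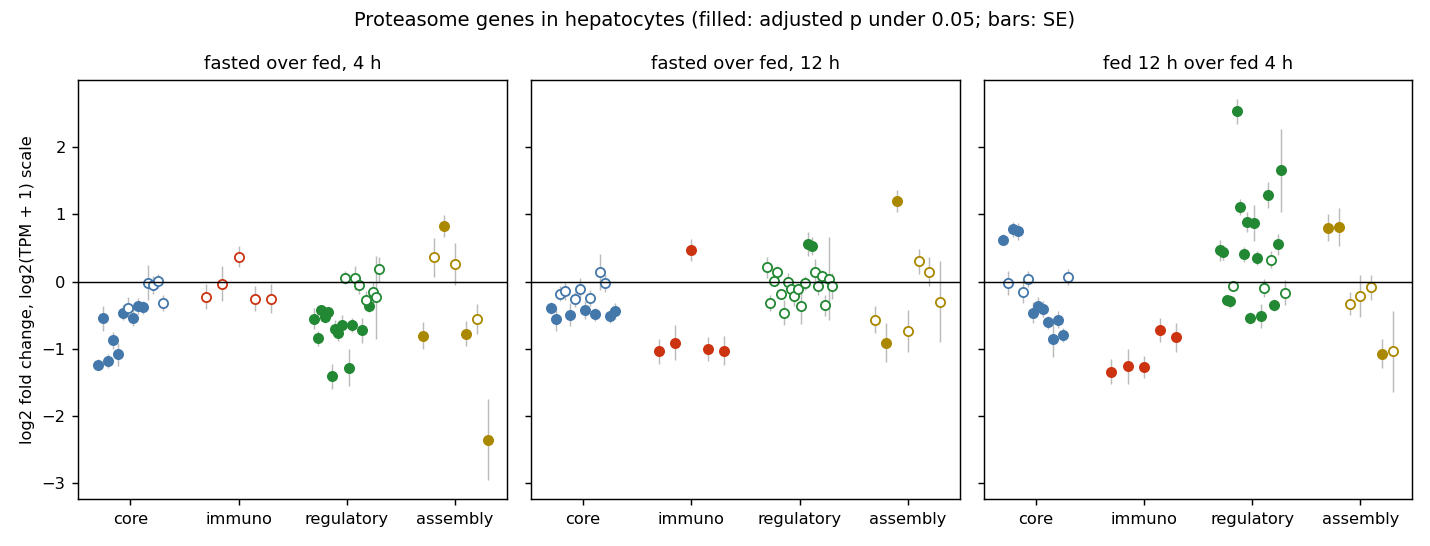
Log2 fold change with SE (bars) of each member by class in 3 hepatocyte comparisons, filled where called. Core and regulatory genes lie mostly below 0 at 4 h of fasting, and 4 of 5 immunoproteasome genes are called lower at 12 h.

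Whether the fasting effect differed between the times was tested as an interaction. Of 46 members 15 had a higher effect at 12 h than at 4 h and 3 a lower one, with 23.2% and 7.43% of 8966 genes. The members with a higher effect were 11 of 20 regulatory, 3 of 14 core and 1 of 7 assembly genes, among them Psma3 (1.00 ± 0.16), Psmc6 (0.94 ± 0.26), the regulatory gene Psmd6 (0.87 ± 0.27), Psma1 (0.84 ± 0.12), Psmc1 of the ATPase ring (0.76 ± 0.22) and the assembly chaperone gene Psmg2 (1.08 ± 0.26). At 12 h Psma1 was at 139, 132 and 140 TPM in fasted and 175 and 185 TPM in fed hepatocytes, and Psmc6 at 66.0, 71.8 and 68.9 TPM in fasted and 95.6 and 95.1 TPM in fed hepatocytes. Among immunoproteasome genes the difference passed the test for Psmb10 (-0.82 ± 0.27, limma adjusted p = 0.044) and missed it for Psme1 (-0.75 ± 0.26, adjusted p = 0.052), Psme2 (-0.77 ± 0.30, 0.085) and Psmb8 (-0.88 ± 0.37, 0.10). Psmb6 (-0.52 ± 0.15) and Psmd5 (-1.27 ± 0.40) had lower effects at 12 h. Centring turned the split to 4 higher and 5 lower, with 16% and 10.9% of genes. Psma1 and Psma3 were called whichever library was left out, whereas Psmd5 and Psmb10 lost their calls without each of 8 libraries, Psmd6 without 7, Psmc1 and Psmc6 without 6, Psmb6 without 4 and Psmg2 without 1. All 3 negative calls were also lost with a replicate block (limma adjusted p = 0.15 for Psmb10, 0.069 for Psmb6 and 0.11 for Psmd5). Among the positive ones named above, Psmc6, Psmd6 and Psmc1 lost theirs under the block as well. Psmb8 passed the test without fasted library 2 of 4 h (adjusted p = 0.010), Psme1 without fasted library 1 of 4 h (0.011) or 3 of 12 h (0.031), and Psme2 without fasted library 1 of 4 h (0.024) or 2 of 12 h (0.044). The count of 18 was 6 without fed library 2 of 12 h, 7 without fed library 1 of 12 h, 10 without fed library 2 of 4 h and 11 without fasted library 3 of 12 h.

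Fed hepatocytes themselves differed between the times, and this comparison shares its libraries with both fasting comparisons. Time of sampling and cell isolation are not separated by the labels and cannot be told apart here. The 5 immunoproteasome genes were all lower in fed livers of 12 h than of 4 h. Psmb8 was at 42.0 and 40.3 TPM at 12 h and at 86.7, 109 and 105 TPM at 4 h (-1.26 ± 0.26, limma adjusted p = 0.0026), and Psmb10 at 23 and 29.4 TPM at 12 h and at 66.6, 67.0 and 68.3 TPM at 4 h (-1.34 ± 0.19). Psmb9 (-1.27 ± 0.16), Psme2 (-0.83 ± 0.22), Psme1 (-0.72 ± 0.18) and Tap1 (-1.63 ± 0.18) were lower too. Of 20 regulatory genes 11 were higher and 5 lower, a balance that centring turned to 4 and 7. Psmc6 was at 95.6 and 95.1 TPM at 12 h and at 13.4, 16 and 17.9 TPM at 4 h (2.53 ± 0.19), and Psmd6 at 120 and 111 TPM at 12 h and at 42.0, 45.9 and 53.4 TPM at 4 h (1.28 ± 0.19). Psmd1, a scaffold of the regulatory base (1.11 ± 0.12), the lid gene Psmd12 (0.89 ± 0.15) and Psmd14 (0.87 ± 0.27) were higher as well. Psme4, at 25.9 and 28.7 TPM at 12 h and 5.73 to 10.6 TPM at 4 h, was called at 1.66 ± 0.62 (adjusted p = 0.043), a call lost with centring, a pseudocount of 0.1, the length trend removed and without each of 8 libraries. Of 14 core genes 3 were higher and 7 lower (5 and 1 with the length trend removed), the lower ones including Psmb4 (-0.86 ± 0.26), Psmb6 (-0.79 ± 0.10) and Psmb5 (-0.56 ± 0.13). Psmb7 was at 104 and 106 TPM at 12 h and 102, 94.6 and 103 TPM at 4 h and was not called. The assembly chaperone gene Psmg3 was lower (-1.07 ± 0.22). In all, 16 members were higher and 18 lower, with 33.3% and 25.8% of 8966 genes.
The Kupffer and macrophage markers summed to 234 to 240 TPM in fed livers of 12 h and 1618 to 1653 TPM in those of 4 h. Of these, 12 of 13 were called lower, and all 12 endothelial markers were lower. Erythroid markers summed to 23.2 to 29.6 TPM at 12 h and 3971 to 4937 TPM at 4 h. Dendritic cell markers summed to 37.4 to 43.3 TPM at 12 h and 1174 to 1191 TPM at 4 h. Hepatocyte markers lay closer, at 63347 to 63543 TPM and 64268 to 66715 TPM. The part of the other cells in the lower immunoproteasome genes was not tested. Transcript length moved with this contrast as well: the excess of short over long genes was 1.16 to 1.26 in fed livers of 12 h and 2.06 to 2.41 in those of 4 h. With the length trend removed, 16 members were higher and 8 lower, with 26.9% and 29.2% of genes; Psmb8, Psmb9 and Psmb10 stayed lower, and the calls of Psme1 (adjusted p = 0.19), Psme2 (0.18), Psmb5 (0.26) and Psmb4 (0.11) were lost. Centring gave 8 higher and 21 lower, with 26.5% and 34.6% of genes. Without fed library 1 of 12 h, and again without fed library 2, the count of 34 was 21. Psme2 lost its call without fed library 1 of 12 h (adjusted p = 0.058), Psmd14 without either of them (0.10 and 0.070) and without fed libraries 2 or 3 of 4 h, and Psmb4 without fed library 1 of 12 h (0.14) or of 4 h (0.060).

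In marrow monocytes, 4 h of fasting moved no member past the test. None of 46 members was called by limma, and 6 had an unadjusted p under 0.05, the smallest adjusted p being 0.17 for Psmg1; 0.424% of 9428 genes were called and 15.6% had an unadjusted p under 0.05. Psmb8 was at 455, 509, 510 and 493 TPM in fasted and at 544, 534, 515 and 479 TPM in fed monocytes (-0.07 ± 0.08). Psmb9 (-0.06 ± 0.09), Psmb10 (0.00 ± 0.09), Psme1 (-0.04 ± 0.08) and Psme2 (0.03 ± 0.11) lay as near to 0. Psmb5, at 223, 261, 263 and 252 TPM in fasted and 233, 211, 210 and 181 TPM in fed monocytes, had 0.26 ± 0.09 (adjusted p = 0.24), Psmb6 0.07 ± 0.10 and Psmb7 0.08 ± 0.10. With fasted library 1 left out, 2 members were called higher, with no share over all genes given for that fit. In simulated data of this experiment 92% of genes with a log2 fold change of 1 were recovered.

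After 17 h the members split by class. All 5 immunoproteasome genes, 13 of 14 core genes and 5 of 7 assembly factors were lower in fasted marrow monocytes, while 13 of 20 regulatory genes, and the assembly factor Psmd5, were higher (when centred, 4 regulatory genes were higher and 13 lower). That is 14 of 46 members higher and 23 lower, with 75.4% of 9134 genes called higher and 14.0% lower. The members' median was -0.25 and that of all genes 1.18, so the values here stand beside a shift of most genes. Relative to that median, Psmd2 (0.79), Psme4 (0.74), Psmd1 (0.27) and Psmd3 (0.27) lay above it and every other member below, from Psmf1 (-0.18) to Psmg4 (-4.28), with Psmb8 at -1.94.
Psmb8 was at 516, 499, 519 and 493 TPM in fasted and at 887, 677 and 1058 TPM in fed monocytes (-0.76 ± 0.14, limma adjusted p = 0.00037). Psmb9 was at 122, 124, 127 and 115 TPM in fasted and at 286, 230 and 302 TPM in fed monocytes (-1.14 ± 0.11). Psme2 was at 619, 572, 534 and 454 TPM in fasted and at 1938, 1739 and 1874 TPM in fed monocytes (-1.77 ± 0.11). The fasted libraries lay close together and the fed ones above them. In the other marrow experiments Psmb8 was at 409 to 544 TPM, a range that held the fasted libraries of 17 h and none of the fed. Psmb10 (-1.08 ± 0.10) and Psme1 (-0.94 ± 0.10) were lower as well.
In the core, Psmb3 was at 372, 292, 324 and 248 TPM in fasted and at 1136, 1170 and 1073 TPM in fed monocytes (-1.88 ± 0.13), and Psmb6 at 477, 419, 428 and 373 TPM in fasted and 1136, 1018 and 1197 TPM in fed monocytes (-1.40 ± 0.10). Psmb2 (-1.49 ± 0.11), Psmb5 (-1.02 ± 0.14) and Psmb7 (-0.39 ± 0.14) were lower. Psmb7 lost its call without fed library 3 (adjusted p = 0.086) and without fasted library 4 (0.057). The assembly chaperone genes Psmg3 (-1.50 ± 0.13) and Psmg4 (-3.10 ± 0.48) were lower, as was Pomp, at 178.6, 157.3, 163.9 and 142.3 TPM in fasted and 566.5, 583.3 and 569.0 TPM in fed monocytes (-1.83 ± 0.09).
Of the regulatory genes Psmd2, a scaffold of the base, was at 232, 229, 229 and 264 TPM in fasted and at 65.8, 55.7 and 58.4 TPM in fed monocytes (1.97 ± 0.10). Psme4 was at 34.3, 32.9, 31.2 and 30.8 TPM in fasted and at 7.80, 10.6 and 5.62 TPM in fed monocytes (1.92 ± 0.17). Psmd1 (1.45 ± 0.08) and Psmd3 (1.45 ± 0.15) were higher, and so were Psmf1, an inhibitor of the proteasome (1.00 ± 0.12), and Psme3, a nuclear activator cap (0.90 ± 0.13). Psmf1 and Psme3 changed sign when centred (-0.09 and -0.19) and with the length trend removed (-0.53 and -0.29), and Psmf1 also with quantile normalization (-0.05).
Transcript length moved with this split. The median transcript length was 1844.5 bases for regulatory, 1311 for immunoproteasome, 1162.5 for core and 1059 for assembly genes. Across the 46 members the log2 fold change at 17 h was higher in longer transcripts (Pearson's r = 0.79, Spearman's rho = 0.79), a description across genes that share their libraries. With the length trend removed, the regulatory genes stood at 5 higher and 7 lower and the core at 8 lower, and all 5 immunoproteasome genes remained lower, Psme2 and Psmb9 among them. In that fit 5 members were higher and 25 lower, with 38.6% and 27.7% of genes. Psmb5 (-0.08, adjusted p = 0.56), Psmb6 (-0.18, 0.059), Psmb7 (-0.05, 0.70), Psme4 (0.31, 0.10) and Psmd1 (0.09, 0.42) lost their calls, and Psmd2 (0.66) and Psmd3 (0.53) kept theirs. Centring gave 4 higher and 39 lower, with 40.9% and 36.4% of genes, the 4 being Psmd1, Psmd2, Psmd3 and Psme4.

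**Figure D4:**
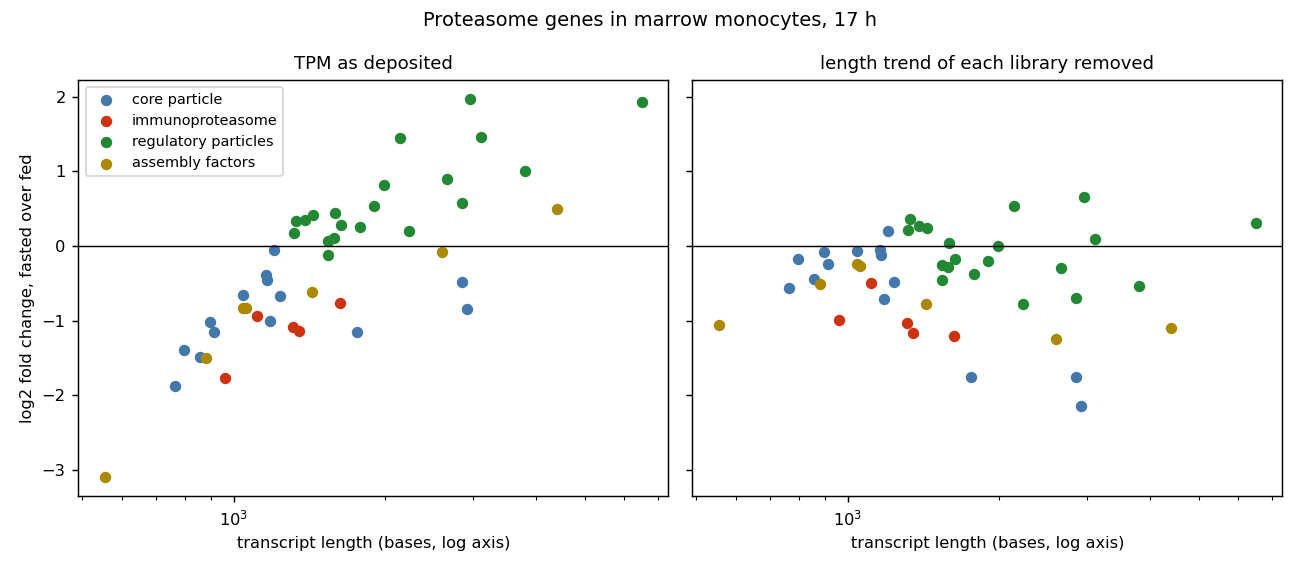
Log2 fold change (17 h fasted over fed marrow monocytes) of the 46 members against transcript length in bases, as deposited and with each library's length trend removed. As deposited, core and immunoproteasome genes lie low on the left and the long regulatory genes high on the right, and with the trend removed 5 regulatory genes are called higher and 7 lower.

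Around the proteasome, Tap1 was higher in fasted monocytes of 17 h, at 61.4, 66.9, 72.3 and 111.7 TPM, against 24.6, 20.2 and 15.6 TPM in fed monocytes (1.89 ± 0.21), the opposite direction to its neighbour Psmb9. Of 16 class I presentation genes 14 were higher and 1 lower. B2m, the light chain of class I molecules, was the lower one (-1.32 ± 0.09). Of 15 genes of the interferon-gamma response 13 were higher and 2 lower, and of 10 regulators of proteasome genes 9 were higher, including Nfe2l1 (2.58 ± 0.21). These counts stand beside 75.4% of all genes called higher.
The fasting effect differed between 17 h and 4 h for 38 of 46 members, 15 with a higher and 23 with a lower effect at 17 h, with 75.1% and 12.9% of 8844 genes. When centred, 4 had a higher and 39 a lower effect (39.5% and 33.2% of genes), and with the length trend removed 6 and 22 (35.9% and 23.7%). The 20 regulatory genes turned with it, at 15 higher and 0 lower as deposited, 4 and 13 when centred and 5 and 5 with the length trend removed. The interaction was -0.69 ± 0.15 for Psmb8, -1.09 ± 0.13 for Psmb9, -1.47 ± 0.15 for Psmb6 and 2.11 ± 0.13 for Psmd2. The times come from separate experiments, so time and experiment cannot be told apart.

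Proteasome genes did not pass the test between the genotypes. None of 45 members was called by limma in CCR2-/- against C57BL/6 marrow monocytes, 3 had an unadjusted p under 0.05, and of 9210 genes 4.38% were called and 27.4% had an unadjusted p under 0.05. Psmb8 was at 460, 498 and 536 TPM in CCR2-/- and at 409, 498 and 493 TPM in C57BL/6 monocytes (0.10 ± 0.10). Psmb9 (0.09 ± 0.14), Psmb10 (0.19 ± 0.11), Psme1 (0.22 ± 0.13) and Psme2 (0.07 ± 0.11) lay within their spread, as did Psmb5 (0.18 ± 0.11), Psmb6 (0.09 ± 0.12) and Psmb7 (0.07 ± 0.10). The member nearest to a call, named after its values were seen, was Psmd3, at 81.1, 52.7 and 87.5 TPM in CCR2-/- and 133, 114 and 109 TPM in C57BL/6 monocytes (-0.71 ± 0.18, adjusted p = 0.058). With CCR2-/- library 1 left out, 2 members were called lower, with no share over all genes given for that fit. Tap1 was lower, at 77.7, 71.0 and 71.1 TPM in CCR2-/- and 120.8, 130.4 and 106.7 TPM in C57BL/6 monocytes (-0.69 ± 0.09, adjusted p = 0.024), while its neighbour Psmb9 was not called.

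In spinal cord monocytes of mice with EAE no member was called as deposited between fasting cycles and feeding, and the fed libraries themselves fell into pairs. Limma called 0 of 46 members, 11 had an unadjusted p under 0.05, and of 9079 genes 2.43% were called and 21.5% had an unadjusted p under 0.05. Simulated data of this design recovered 17% of genes with a log2 fold change of 1 and 64% of those with 2, so most changes of the smaller size went uncalled there. The simulation gave all libraries the same spread for a gene, with no split of the fed libraries into pairs. Its rates are thus no measure of recovery under that split.
Psmb8 was at 478, 419, 550 and 515 TPM under fasting cycles and at 286, 276, 796 and 901 TPM in fed mice (0.00 ± 0.40). Psmb10 was at 217, 256, 269 and 227 TPM under fasting cycles and at 52.8, 51.5, 234 and 316 TPM in fed mice (1.01 ± 0.57, adjusted p = 0.32). Psme2 was at 315, 303, 331 and 327 TPM under fasting cycles and at 280, 251, 655 and 932 TPM in fed mice (-0.51 ± 0.40, adjusted p = 0.47). The fasting libraries were close together, fed libraries 1 and 2 lay below them, and fed libraries 3 and 4 lay above them for Psmb8 and Psme2.
Psmb9 was at 111, 69.6, 87.1 and 106 TPM under fasting cycles, against 102, 107, 169 and 223 TPM in fed mice (-0.63 ± 0.29, adjusted p = 0.25). Its share of the pair with Psmb6 did not overlap, at 11.2% to 16.7% under fasting cycles and 23.4% to 33.9% in fed mice. However, the transcripts of Psmb9 and Psmb6 are 1352 and 798 bases long. The excess of short over long genes was 1.45 to 1.92 under fasting cycles and 1.16 to 1.36 in fed mice. This share was not corrected for length, and the part of length in its difference was not tested. Psmd9 was nearest to a call, at 64.4, 76.1, 95.5 and 74.8 TPM under fasting cycles and 27.6, 26.5, 49.3 and 43.4 TPM in fed mice (1.10 ± 0.26, adjusted p = 0.060), and is named here after its values were seen.
Fed libraries 1 and 2 were also those rich in neutrophil transcripts. Ngp, a neutrophil granule gene, was at 837 to 3395 TPM under fasting cycles and in fed mice at 52846, 56754, 1388 and 637 TPM, and Mmp9, another one, at 3.10 to 7.75 TPM under fasting cycles and in fed mice at 3483, 3428, 18.6 and 11.4 TPM. With fed library 3 left out 2 members were called higher, with no share over all genes given for that fit. With every library kept, centring and removing the length trend each called 1 immunoproteasome gene lower and 1 assembly gene higher, again with no such share. With libraries 3 and 4 as the only fed ones, a choice made after seeing the data, 3 members were called lower under fasting cycles and 0 higher, with 5.30% and 3.23% of genes. These were Psme2 (-1.29 ± 0.18, adjusted p = 0.0081), Psmb9 (-1.07 ± 0.23, 0.026) and Psmb8 (-0.79 ± 0.18, 0.029), with Psme1 at -0.64 ± 0.18 (0.059) and Psmb10 at -0.17 ± 0.19. Core genes then had a median of 0.10 and regulatory genes of -0.16, beside -0.13 for all genes. Irf1 was at 81.9, 93.5, 71.3 and 111.6 TPM under fasting cycles and 183.4, 201.0, 179.2 and 641.7 TPM in fed mice (-1.52 ± 0.40, limma adjusted p = 0.079). Every fasting library lay below every fed library for it, libraries 1 and 2 included, but it did not pass the test.

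**Figure D5:**
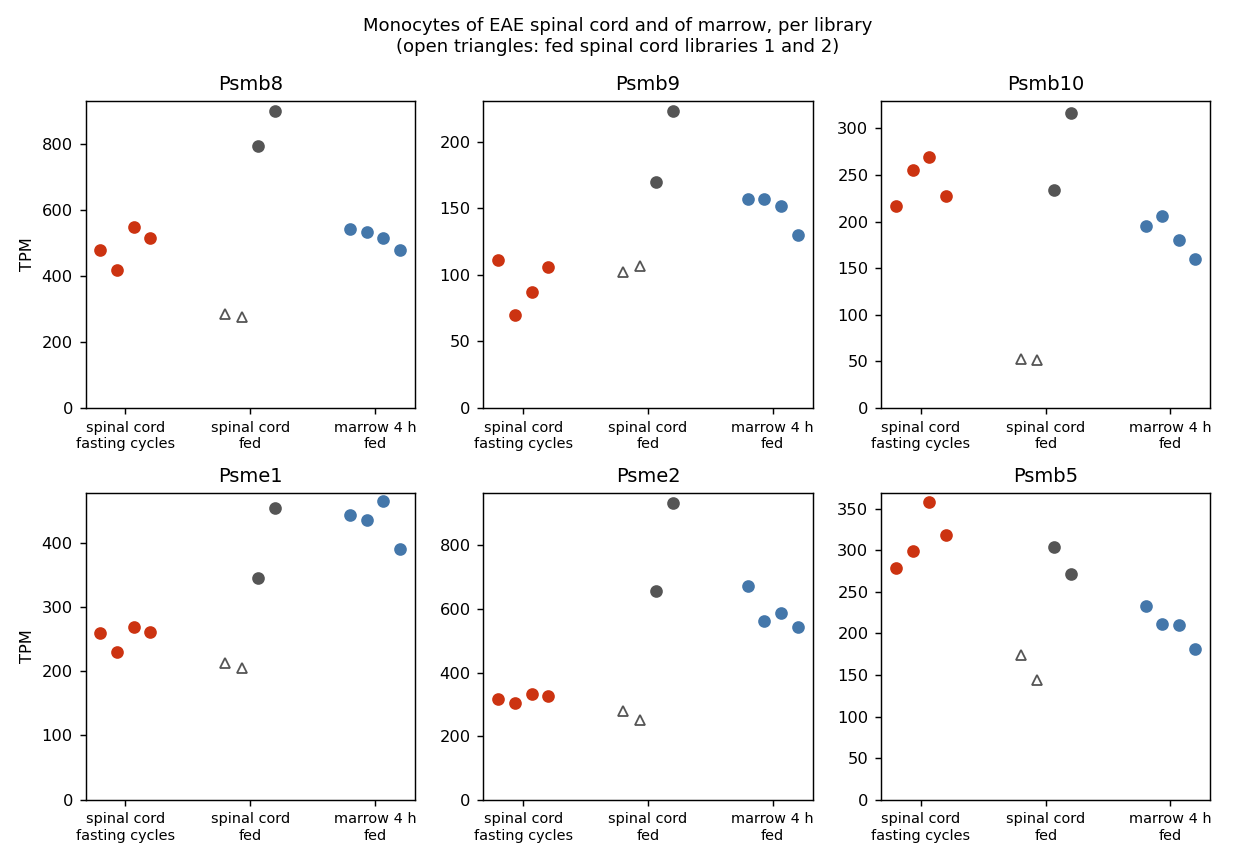
TPM of the 5 immunoproteasome genes and Psmb5 per library in spinal cord monocytes under fasting cycles, in fed spinal cord and in fed 4 h marrow; open triangles are fed spinal cord libraries 1 and 2. The fed spinal cord libraries fall into a low and a high pair for Psmb8, Psmb10 and Psme2.

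Between fed spinal cord and fed marrow monocytes the direction depended on the scaling: as deposited 22 of 46 members were lower in spinal cord and 0 higher, and when centred 8 were lower and 16 higher (30.2% and 25.0% of genes). As deposited the lower ones were 13 regulatory and 7 core genes, Psme1 and Psmg2, with 53.4% of 8849 genes called lower and 8.11% higher and a median over all genes of -0.65. Psme4 was at 7.71, 8.25, 13 and 20.3 TPM in spinal cord and at 37.6, 41.2, 36.0 and 42.6 TPM in marrow (-1.69 ± 0.27, limma adjusted p = 0.00014). Psma7, an alpha subunit, was at 247, 227, 866 and 767 TPM in spinal cord and at 1217, 1092, 1143 and 993 TPM in marrow (-1.33 ± 0.34). Psma4 (-1.34 ± 0.32), Psmc6 (-1.15 ± 0.22), Psmg2 (-1.13 ± 0.28), Psmd1 (-1.11 ± 0.28), Psmb7 (-0.67 ± 0.20) and Psme1 (-0.59 ± 0.20) were lower too. The call of Psme1 was lost without spinal cord library 1 (adjusted p = 0.082) or 2 (0.083) or marrow library 3 (0.053). The other 4 immunoproteasome genes, Psmb5 and Psmb6 were not called, though without spinal cord library 4 Psmb10 (-1.09, adjusted p = 0.015) and Psme2 (-0.71, 0.020) were. These values include the low pair of fed libraries. With libraries 3 and 4 alone, 8 members were higher and 7 lower, with 10.9% and 35.1% of genes. Then Psmb8 (0.71 ± 0.13), Psmb10 (0.56 ± 0.15), Psmb6 (0.50 ± 0.16) and Psmb5 (0.46 ± 0.13) were higher in spinal cord, and Psme4 (-1.22 ± 0.24) and Psmc6 (-0.72 ± 0.17) stayed lower. Without fed library 1 the count was 12, and without library 2 it was 13. Quantile normalization gave 6 higher and 14 lower members, with 24.5% and 30.7% of genes. Tissue, EAE and experiment cannot be told apart in this comparison.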

How the data were processed

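RNA-seq was run on 39 libraries in 5 experiments. The authors deposited a gene symbol and an expression value per gene for each library, made with kallisto 0.44.0 on GRCm38, per the submitters' processing notes. The deposited values are TPM, as their fractions and library totals show, with no counts, so depth is unknown. A count test was foreseen; with no counts, limma 3.58.1 (R 4.3.3; trend, robust) on log2(TPM + 1) was used, for genes with a mean of at least 1 TPM, with Benjamini-Hochberg adjustment over all genes tested and calls under 0.05. Each monocyte experiment was fitted alone, the 10 hepatocyte libraries together, and comparisons across experiments on the genes listed in both. Between 13 and 15 symbols turned into dates were left out of each library. No library looked like a copy of another.

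The members, gene lists and tests were chosen with earlier results of these data known. Named in each comparison were the constitutive and inducible catalytic pairs, Psme1 and Psme2, and, among called members with at least 10 TPM in the higher group and groups that do not overlap, the 6 highest and the 6 lowest by fold change; some of them were left unnamed. The alternatives were quantile normalization, centring on each library's median, a pseudocount of 0.1, no filter, a mean of at least 10 TPM, a replicate block, narrower sets of libraries, and each library left out. Removing each library's trend on transcript length (loess, span 0.5; GENCODE M21 lengths) and using fed spinal cord libraries 3 and 4 alone were chosen after seeing the data. Simulated data with known changes served to check the fits. Promoter windows came from RefSeq, which held 39 of the 46 members. Summaries and figures used Python 3.11.15 with pandas 2.3.3, numpy 2.4.6 and, for drawing, matplotlib 3.10.9. Some genes of the lists are not reported here.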

Additional observations from a re-analysis of the deposited data

Results flagged for a closer look

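The ratio of Psmb9 to Psmb6 in fed marrow library 2 of the 4 h experiment was 0.476, against 0.408 to 0.414 in the other 3 fed libraries. It was the only value that lay far from the rest of its group among 75 groups examined, and chance sets a library apart in about 1 of 20 groups. Only groups of 4 libraries were examined, so hepatocytes, both genotypes and fed marrow of 17 h were left out. The rule looks for a single library apart and cannot flag a split into pairs, as in fed spinal cord.

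In hepatocytes the fasting effect differed between 12 h and 4 h, by a test of the difference itself, for named members of every class. The difference in log2 fold change was negative for Psmd5 (-1.27), Psmb10 (-0.82) and Psmb6 (-0.52), and none of these 3 passed the test with a replicate block. It was positive for Psmc1 (0.76), Psma1 (0.84), Psmd6 (0.87), Psmc6 (0.94), Psma3 (1.00) and Psmg2 (1.08). Of these, Psmc1, Psmd6 and Psmc6 did not pass the test with the block either.

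In marrow monocytes the fasting effect was tested between the 17 h and the 4 h experiment, and the same test of the difference picked out immunoproteasome, core and assembly genes with lower effects at 17 h. These were Psme2 (-1.80), Psmb9 (-1.09), Psmb10 (-1.08), Psme1 (-0.90) and Psmb8 (-0.69) of the immunoproteasome, Psmb3 (-2.10), Psmb2 (-1.74), Psmb6 (-1.47), Psmb5 (-1.28) and Psmb7 (-0.47) of the core, and the assembly genes Psmg4 (-3.73) and Psmg3 (-1.80). The call of Psmb7 was lost without fed library 3 of 17 h (adjusted p = 0.066). As deposited, regulatory genes had higher effects at 17 h, while 13 of 20 had lower and 4 higher effects when centred, and 5 and 5 with the length trend removed: Psmd2 (2.11), Psme4 (2.02), Psmd3 (1.70), Psmd1 (1.69), Psmf1 (1.09) and Psme3 (1.05). The fed libraries of 17 h also had the excess of short transcripts given above, and its part in these differences was not tested, although with the length trend removed Psmd2 stood at 0.70, Psmf1 at -0.53, Psme3 at -0.24, Psmb8 at -1.16 and Psmb6 at 0.088.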

How the results depend on the processing

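Calls in the single comparisons of marrow at 17 h and of marrow with hepatocytes stayed within 1.5 times their count in every alternative, but directions did not. The cause was not tested for any change below. The number of members called became 16 for hepatocytes at 4 h when fitted on that time alone, and for the hepatocyte interaction 9 when centred, 10 with the length trend removed and 8 with a replicate block. For CCR2-/- it became 1 with the length trend removed and 2 with the block. For spinal cord fasting it became 2 with quantile normalization (1 core and 1 assembly gene higher). It was also 2 with centring and with the length trend removed, each with 1 immunoproteasome gene lower and 1 assembly gene higher. No share over all genes is given for these 3 fits. With fed libraries 3 and 4 alone it became 3. For spinal cord against marrow it was 10 with fed libraries fitted alone.

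Leaving out each library gave 23 to 30 called members for hepatocytes at 4 h, 6 to 24 at 12 h, 21 to 35 for fed 12 h against fed 4 h and 6 to 27 for the interaction. It gave 0 to 2 for marrow at 4 h, for CCR2-/- and for spinal cord fasting, 37 to 40 for marrow at 17 h, 35 to 40 for the marrow interaction, 12 to 27 for spinal cord against marrow and 35 to 39 for marrow against hepatocytes. No share over all genes is given beside these counts or those of the replicate block below. They show how far a count rests on single libraries or the fit, not how members compare with other genes.

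Of 2654 single-gene values, 77 that no fit called changed sign. Values called in either fit that reversed were these. At 17 h in marrow, Psmf1 was at -0.0505 with quantile normalization, -0.0869 centred and -0.53 with the length trend removed, and Psme3 at -0.19 centred and -0.29 by length. In the marrow interaction Psmf1 was at -0.0263, -0.0544 and -0.53 in the same order, Psme3 at -0.10 centred and -0.24 by length, and Psmb6 at 0.088 by length. In spinal cord fasting Psmb8 was at -0.79 with fed libraries 3 and 4 alone. In spinal cord against marrow, centring gave 0.56 for Psmb6, 0.52 for Psmb8, 0.55 for Psmb9 and 0.0183 for Psme1, libraries 3 and 4 gave 0.50 for Psmb6, 0.71 for Psmb8 and 0.56 for Psmb10, and the length trend 0.37 for Psmb9. In marrow against hepatocytes Psmb5 was at -0.73 with quantile normalization, -1.45 centred and -0.36 by length, and Psmb7 at -0.41, -0.99 and -0.14. There centring gave -0.13 for Psmb10, -0.35 for Psme1 and -0.82 for Psme2, and the length trend -0.17 for Psme4. The assembly level at 12 h in hepatocytes was at -0.15 as a median of log2 values in place of a sum.

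The replicate numbers were not taken to pair the libraries, since in no comparison with 3 or more pairs did every same-numbered pair correlate above 0.1 (0.29 and 0.335 for the 2 pairs of hepatocytes at 4 h, each best with its own number, a hint from the data only; from -0.368 to -0.0296 in marrow at 4 h, -0.318 to 0.126 at 17 h, -0.0824 to 0.373 for CCR2-/- and -0.0443 to -0.0299 in spinal cord). With the replicate block, called members were 24 for hepatocytes at 4 h, 11 at 12 h, 30 for fed 12 h against fed 4 h, 8 for the interaction, 0 for marrow at 4 h, 36 at 17 h, 38 for the marrow interaction, 2 for CCR2-/-, 0 for spinal cord, 22 for spinal cord against marrow and 37 for marrow against hepatocytes. Under the block Psmb8 (adjusted p = 0.057), Psmb9 (0.068) and Psmd5 (0.062) lost their calls at 12 h and Psmb7 (0.051) at 17 h, in limma, and in the hepatocyte interaction Psmb10 (0.15), Psmb6 (0.069), Psmd5 (0.11), Psmc6 (0.097), Psmd6 (0.093) and Psmc1 (0.071).

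With 2 or 3 libraries in hepatocyte groups, tests on simulated data recovered 50% of genes with a log2 fold change of 1 at 4 h. With no counts, low genes such as Psme4 carry unknown counting error.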

Other observations

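The RNA of each class was summed per library, given as levels with no test. Core genes summed to 4840.9 ± 435.8 TPM in fed marrow monocytes of 4 h (SD, n = 4) and 2584 ± 139 TPM in fed hepatocytes of 4 h (n = 3). Over all groups they summed to 2137 to 10765 TPM in monocytes and 1791 to 2735 TPM in hepatocytes, ranges that overlapped through fed spinal cord libraries 1 and 2. Immunoproteasome genes summed to 1876.5 ± 128.1 TPM in those monocytes and 731.6 ± 32.4 TPM in those hepatocytes. In hepatocytes of 12 h the immunoproteasome sum was 203.8 ± 26.5 TPM in fasted (n = 3) and 386.5 ± 15.2 TPM in fed mice (n = 2), while the regulatory sum was 2392 ± 66 TPM in fasted and 2368.5 ± 80.5 TPM in fed mice. The immunoproteasome over the core sum was 0.254 to 0.299 in spinal cord monocytes under fasting cycles and 0.393 to 0.626 in those of fed mice, with no overlap. The excess of short over long genes did not overlap there either, at 1.45 to 1.92 and 1.16 to 1.36. The sums were not corrected for length, and its part in this difference was not tested.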
